A study of Mus musculus with 2 samples.

Results

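The circadian clock genes of the mouse egg were followed in 2 libraries of oocytes arrested at metaphase II, 1 from mothers that had slimmed and 1 from control mothers. The list held 10 genes of the 36227 in the deposited table: the activators Clock and Arntl, the repressors Per1, Per2, Per3, Cry1 and Cry2, the transcription factors Bhlhe40 and Nfil3, and Timeless. They were taken by symbol and matched to the Ensembl identifiers of the table. The rule for the list uses no measured value, but the list was chosen with earlier results of these data known. All 10 had a count in at least 1 library, and 6 reached 10 CPM (the count divided by the library's total and multiplied by 1000000) in at least 1 library.

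Both groups were female ICR mice, an outbred strain, that grew up in standard cages and were obese at 12 weeks. For the next 4 weeks the slimming mothers lived in EE (enriched environment) cages and the control mothers, labelled as fed a standard diet, stayed in normal cages. At 16 weeks 3 naturally ovulated oocytes were taken from each of 3 mothers per group, and the 9 oocytes of a group were lysed together and sequenced as 1 library (the slimming pool and the control pool below), with 20947962 counts for slimming and 20242289 for control. With 1 pooled library per group there is no replicate check and no test of the groups, the spread between mothers is unknown, and intervals cover counting error only. The hour of collection is not given in the labels used here.

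In most cells the clock is a feedback loop. CLOCK and ARNTL (also called BMAL1) pair up and switch on genes that carry an E-box in their promoter, among them the Per and Cry genes, and the PER and CRY proteins return to the nucleus and silence CLOCK and ARNTL. ROR and REV-ERB receptors set the level of Arntl through a promoter element called the RORE, and NFIL3 opposes the factors DBP, TEF and HLF at D-boxes. A fully grown oocyte makes almost no new RNA, so its clock mRNAs are stored maternal transcripts.

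The egg held a partial set of clock mRNAs, and the same genes were high or low in both libraries. Cry1 led the list at 147 CPM per kilobase of transcript in the slimming pool and 159 CPM per kilobase in the control pool. Arntl followed at 39.7 and 32.4 CPM per kilobase, Nfil3 at 21.9 and 34.5, and Timeless at 17.1 and 25.0. Clock was lower, at 4.99 and 5.22 CPM per kilobase, and Per3 stood at 3.36 and 2.31. Bhlhe40 and Per1 lay under 2 CPM per kilobase in both libraries, Per2 under 0.2, and Cry2 had 0 counts in the slimming pool and 1 count in the control pool. Arntl ranked above Nfil3 in the slimming pool, while their counting intervals overlapped in the control pool, as did those of Per3 and Bhlhe40 and of Bhlhe40 and Per1. In the slimming pool the intervals of neighbouring genes in the order overlapped for Per2 and Cry2 only. This order rests on division by the longest annotated transcript. By CPM, Arntl stood above Nfil3 in the control pool too, at 129 (124 to 134) against 70.0 (66.4 to 73.7). Clock stood above Nfil3 by CPM in the slimming pool, at 48.6 against 44.4, with overlapping intervals. Levels are shares of a library, so less mRNA in each oocyte and fewer oocytes holding it cannot be told apart.

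**Figure D1:**
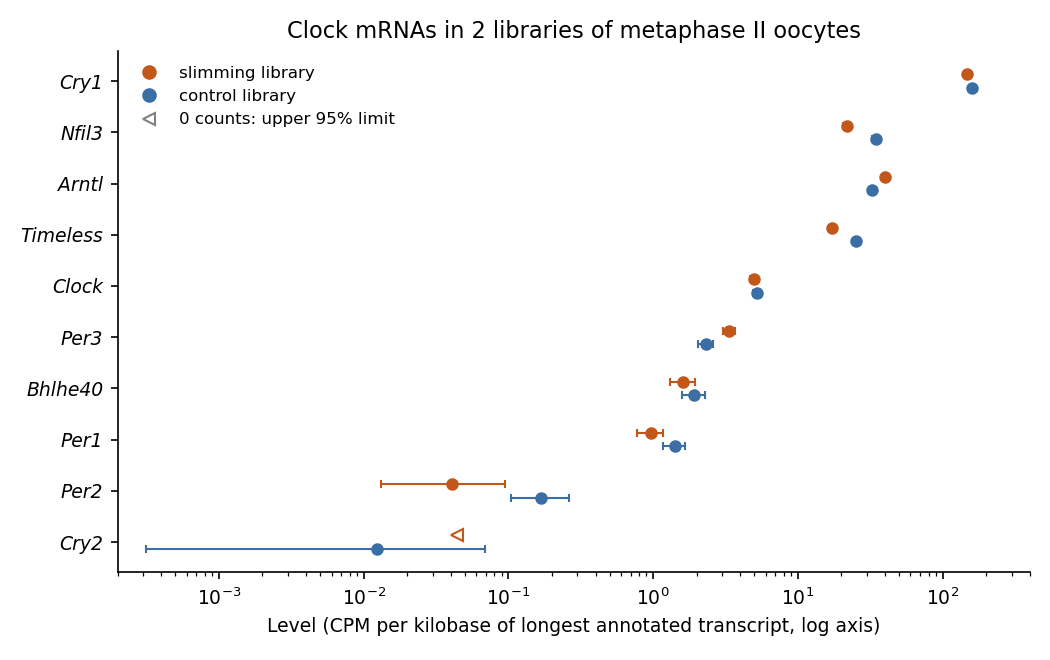
Level of each clock gene on a log axis, in CPM per kilobase of its longest annotated transcript, for the slimming (orange) and control (blue) libraries, with 1 library per group. Bars are exact 95% Poisson intervals of the count, and the open triangle is the upper limit for Cry2 at 0 counts; the genes span from Cry1 at 147 and 159 CPM per kilobase down to Cry2.

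Among the activators, Clock encodes the partner of the activating dimer that also acetylates histones (ENSMUSG00000029238, chromosome 5). It had 1018 counts in the slimming pool and 1030 in the control pool, or 48.6 and 50.9 CPM. Its log2 ratio, slimming over control, was -0.10, with a 95% counting interval of -0.22 to 0.03 that included equal levels. Its partner Arntl (ENSMUSG00000055116, chromosome 7) had 3323 counts against 2619, or 159 CPM (153 to 164) against 129 CPM (124 to 134). The slimming value of Arntl was thus the higher one, by a log2 ratio of 0.26 (interval 0.19 to 0.34). An antisense gene of the annotation, Gm45355, shares exon sequence with Arntl and is not in the table. Arntl made up 76.5% of the summed Arntl and Clock counts in the slimming pool (exact 95% interval 75.3 to 77.8) and 71.8% in the control pool (70.3 to 73.2), a share that does not depend on how the libraries are scaled.

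The paralogs that can stand in for these activators were close to absent. Npas2, which replaces Clock in the forebrain, had 1 count in the slimming pool and 0 in the control pool, where 0 allows up to 0.291% of the summed Clock and Npas2 counts. Arntl2 had 2 counts against 19, which is 0.0602% (0.00729 to 0.217) and 0.72% (0.434 to 1.12) of the summed Arntl and Arntl2 counts. Both libraries therefore drew their activator mRNA from Clock and Arntl.

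The Arntl start region was read for the RORE of the loop's second arm. The 300-base promoter windows of RefSeq (GRCm38.p6, 250 bases before and 50 after each start site) were searched on both strands. The RORE was searched only as the exact 11 letters in capitals below, and other spellings of it were not searched. This spelling stood in 7 of 27025 genes (0.0259%), and Arntl was the 1 clock gene of the 8 with a window that held it. How this spelling was chosen is not stated here. It may be that of Arntl itself, and then the match was fixed in advance. The match and its share are descriptions and no test. The stretch below lies at chr7:113207528-113207556 on the plus strand, 17 to 45 bases after the second of its 2 annotated start sites.
Arntl: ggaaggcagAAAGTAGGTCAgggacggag

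Of the receptors that act there, Rora, an activator at the RORE, was the 1 with at least 10 CPM. It had 390 counts in the slimming pool and 485 in the control pool, a log2 ratio of -0.39 (interval -0.59 to -0.20), and shares exon sequence with Gm15511. Nr1d1, which encodes the repressor REV-ERB alpha, had 79 counts against 50, and its exons overlap those of Thra, so its counts are uncertain with no strand stated. Nr1d2 had 10 against 5 counts and Rorb 2 against 0. Rora thus stood lower and Nr1d1 higher in the slimming pool, the latter at under 4 CPM in both pools and a log2 ratio of 0.57 (0.05 to 1.12).

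On the repressor side the cryptochromes were wholly unequal. Cry1 (ENSMUSG00000020038, chromosome 10), a light-independent repressor of CLOCK and ARNTL, had 9307 counts in the slimming pool and 9753 in the control pool, or 444 CPM (435 to 453) and 482 CPM (472 to 491). The intervals of the 2 libraries, which cover counting error only, did not overlap. The log2 ratio was -0.15 (-0.19 to -0.11), or 1.11-fold lower in the slimming pool. Of genes of like level, 59.8% lay at least as far from their median. Cry2 (ENSMUSG00000068742, chromosome 2) gave 0 of 9307 summed Cry1 and Cry2 counts in the slimming pool, which allows a share of up to 0.0322%, and 1 of 9754 in the control pool (0.0103%, interval 0.00026 to 0.0571). Both counts were under the floor of 3, so no ratio is given for Cry2. An antisense gene in the annotation, D930015M05Rik, overlaps Cry2 exons and is listed in the table without counts.

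The period genes were fewer in number of reads and differed in direction. Per3 (ENSMUSG00000028957, chromosome 4) had 422 counts in the slimming pool and 281 in the control pool, or 20.1 CPM (18.3 to 22.2) against 13.9 CPM (12.3 to 15.6). It was 1.42-fold higher in the slimming pool, at a log2 ratio of 0.51 (0.28 to 0.73). Per1 (ENSMUSG00000020893, chromosome 11), which signals can induce within minutes in other tissues, had 94 counts against 133, at 4.49 and 6.57 CPM. Its log2 ratio was -0.58 (-0.98 to -0.19), the opposite side from Per3, but it lay under 10 CPM in both pools. Per2 (ENSMUSG00000055866, chromosome 1), the period gene most often needed for a stable rhythm, had 5 counts against 20, or 0.239 and 0.988 CPM. The ratio of Per2 was 3.94-fold lower in the slimming pool, but its interval ran from log2 -3.85 to -0.62.

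Within the family, Per3 supplied most of the period counts in both libraries. Its share of the summed Per1, Per2 and Per3 counts was 81.0% in the slimming pool (77.4 to 84.3) and 64.7% in the control pool (60.0 to 69.2). Per1 supplied 18.0% and 30.6%, and Per2 0.96% and 4.61%. Divided by transcript length, the share of Per3 was 77.0% and 59.5%. The intervals of the Per3 shares did not overlap; these shares within families were chosen after their values were seen.

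The windows of the repressors were read for the sites through which CLOCK and ARNTL act in other cells. The E-box CACGTG was found in the windows of 8.09% of all genes and in those of Per1 and Cry1 among the 8 clock genes with a window. The related E'-box CACGTT, read as AACGTG on the other strand, was found in 5.44% of genes and in Cry1 and Cry2. The element TTATGTAA, a D-box form that NFIL3 binds, was found in 1.11% of genes and in Per3, where it occurs at 2 places, and Timeless. The D-box TTACGTAA (0.126% of genes) and the cyclic AMP element TGACGTCA (2.03%) were found in none of the 8. The E-box, the D-box TTACGTAA and the cyclic AMP element read the same on both strands, and no 2 matches overlapped. The stretches below are shown because Cry1 and Per3 lead their families in the egg while Cry2 and Per1 do not. They come from chr10:85185097-85185145 (minus strand, Cry1), chr2:92434215-92434250 (minus, Cry2), chr11:69098768-69098803 (plus, Per1) and chr4:151044806-151044880 (minus, Per3), with the E-box, E'-box or D-box in capitals; positions are those of GRCm38.p6, while the counts were made on mm9.
Cry1: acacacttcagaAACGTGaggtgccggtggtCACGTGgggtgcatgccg
Cry2: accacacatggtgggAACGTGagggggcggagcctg
Per1: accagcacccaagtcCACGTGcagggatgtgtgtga
Per3: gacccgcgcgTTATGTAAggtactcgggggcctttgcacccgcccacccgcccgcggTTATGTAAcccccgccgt

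A match in these letters is a description of the window and no measure of binding. Both Cry1 and Per1 hold an E-box, while their control levels were 159 and 1.41 CPM per kilobase. Windows for Per2 and Bhlhe40 were not used here.

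Bhlhe40 (ENSMUSG00000030103, chromosome 6), a repressor also known as DEC1 that competes for E-boxes, had 105 counts in the slimming pool and 120 in the control pool. Its log2 ratio was -0.27, with an interval of -0.67 to 0.12 that included equal levels. The antisense gene 0610040F04Rik overlaps its exons and had 977 counts against 643, more than Bhlhe40 itself. Since the labels do not say whether counting used the strand, the Bhlhe40 value is uncertain. Its paralog Bhlhe41 (DEC2) had 120 counts against 203, a log2 ratio of -0.84 (-1.18 to -0.51), and Ciart, another repressor of the loop, 156 against 132. Bhlhe41 was thus 1.79-fold lower at about 10 CPM in the control pool, and it also shares exon sequence with another annotated gene.

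Nfil3 (ENSMUSG00000056749, chromosome 13), the D-box repressor also called E4BP4, differed most of the 6 clock genes with at least 10 CPM. It had 931 counts in the slimming pool and 1416 in the control pool, or 44.4 CPM (41.6 to 47.4) against 70.0 CPM (66.4 to 73.7). It was 1.61-fold lower in the slimming pool, at a log2 ratio of -0.69 (-0.81 to -0.57). No annotated gene shares its exons. The factors it opposes were near 0: Dbp had 0 counts against 1, Tef 0 in both, and Hlf 9 against 0, at least 2.84-fold higher against a floor of 3 counts per library. Nfil3 was therefore the 1 D-box factor with more than 1 CPM in either library.

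Timeless (ENSMUSG00000039994, chromosome 10) is the mammalian relative of a fly clock gene, and its best established task is to protect DNA replication forks together with TIPIN and claspin. It had 1641 counts in the slimming pool and 2317 in the control pool, or 78.3 CPM (74.6 to 82.2) against 114 CPM (110 to 119). It was 1.49-fold lower, at a log2 ratio of -0.58 (-0.67 to -0.49). Its binding partner Tipin went the other way, with 2231 counts against 1362 and a log2 ratio of 0.63 (0.53 to 0.73). The share of Timeless in the summed Timeless and Tipin counts was 42.4% in the slimming pool (40.8 to 44.0) and 63.0% in the control pool (61.4 to 64.5), so the gene with more counts of the 2 was Tipin in the slimming pool and Timeless in the control pool. Divided by transcript length the share of Timeless was 22.8% and 40.6%, so by this measure Tipin led in both pools and the order did not change. The antisense gene Gm26847, which is not in the table, shares exon sequence with Timeless.

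The other fork genes with at least 10 CPM lay between these partners. Clspn (claspin) had a log2 ratio of -0.44 (-0.51 to -0.36), and the list of Timeless partners, with 5 of 6 members at 10 CPM or more, had 3 above and 2 below the median of all such genes. The Timeless promoter holds the NFIL3 form of the D-box, printed in capitals in the stretch from chr10:128237894-128237931 (plus strand, GRCm38.p6). The stretch was picked with the ratios known: Timeless and Nfil3 were the 2 lowest of the 6, and Per3, with 2 such sites, was the highest. Whether NFIL3 acts at these sites in the oocyte was not tested.
Timeless: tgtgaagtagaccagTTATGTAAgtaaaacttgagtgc

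**Figure D2:**
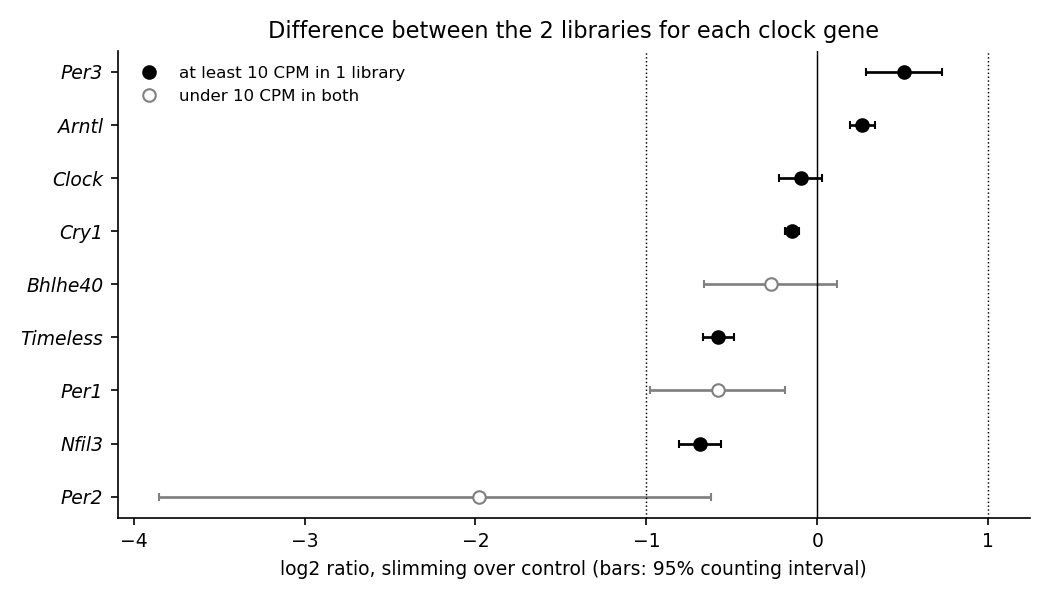
log2 ratio of slimming over control for 9 clock genes, with 95% counting intervals; filled points are genes with at least 10 CPM in 1 library, open points lie under it, and dotted lines mark 2-fold. Per3 and Arntl lie above 0, Clock and Bhlhe40 have intervals that include 0, and Nfil3 is lowest of the filled points at -0.69; Cry2 is not drawn because both counts are under 3.

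The counts of clock genes past each mark were set beside the share of all genes past it. Of the 6 clock genes with at least 10 CPM, 0 were 2-fold or more apart, where 4.67% of all 5714 such genes were (2.73% higher and 1.94% lower). At 1.5-fold, 1 of the 6 was lower (Nfil3), against 7.16% of all genes, and 0 were higher, against 10.3%. The counting interval lay below a ratio of 1 for Cry1, Nfil3 and Timeless, where 35.1% of all genes did so, and above 1 for Arntl and Per3, against 37.7%; an interval without 1 was the common case, at 72.9% of all genes. In the authors' deposited table, 5 of the 9 clock genes given a p-value were marked at 0.001, where 35.9% of all 15263 genes given one were. That mark compares the reads of 2 libraries. All 5 (Arntl, Per3, Cry1, Nfil3 and Timeless) were among the 6 with at least 10 CPM. The 15263 genes include those under 10 CPM, so the shares are not of genes of like level. The authors' deposited table gives p = 1.61e-27 for Nfil3 and p = 2.34e-32 for Timeless, and p = 0.298 for Clock and p = 0.209 for Bhlhe40, at the other end. The median log2 ratio of the 6 was -0.12, beside 0.02 for all 5714 genes, with 4 below and 2 above that value.

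The spread among genes of like level gives the scale for each value. Of the 1739 genes with a mean of 30 to 100 CPM, 8.86% lay at least as far from their median as Nfil3 and 13.5% as far as Timeless, and the SD of the log2 ratio was 0.40. For Per3 it was 32.3% of 2123 genes between 10 and 30 CPM, for Arntl 42.8% of 947 genes between 100 and 300 CPM, and for Cry1 59.8% of 453 genes between 300 and 1000 CPM. Clock lay nearer to the median than 76.8% of its group. Of the 4851 genes between 1 and 10 CPM, 47.4% lay at least as far out as Per1 and 71.6% as far as Bhlhe40. Per2, despite its ratio of 3.94-fold, was matched or passed by 37.5% of the 7768 genes under 1 CPM. Nfil3 thus lay farthest out among genes of like level, and Clock nearest to the middle.

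Transcript length moved with the ratio over all genes: the median log2 ratio was 0.17 in the shortest of 5 length groups and -0.09 in the longest. With that trend taken out, Nfil3 stood at -0.77, Timeless at -0.55, Arntl at 0.28, Per3 at 0.57 and Cry1 at -0.17, so the order of these 5 genes was the same. Clock, the longest of the 10 transcripts, moved from -0.10 to 0.01.

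**Figure D3:**
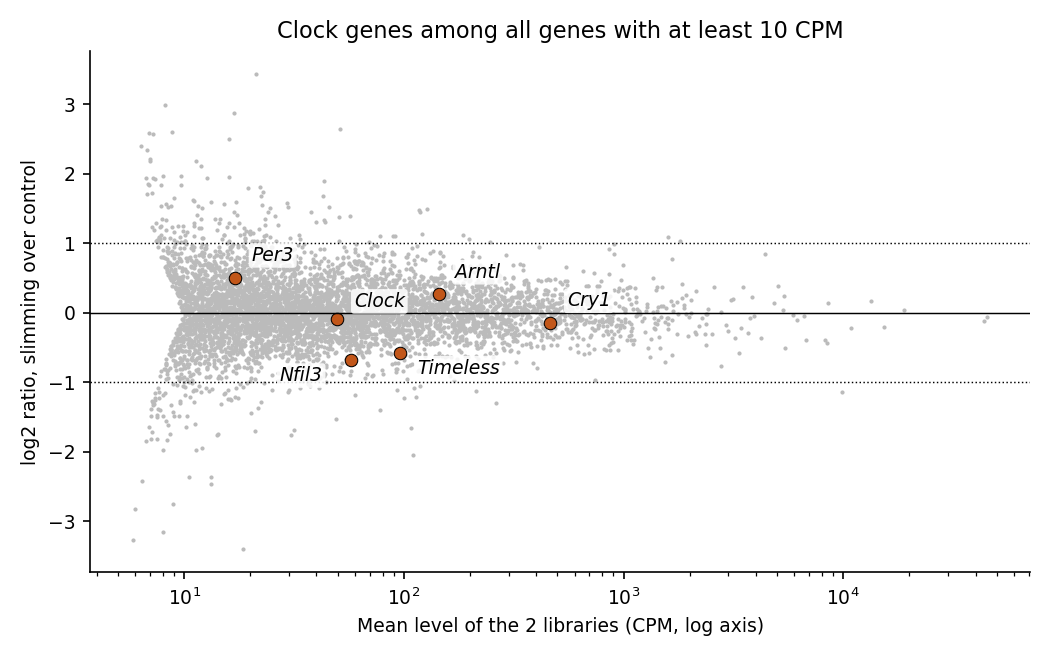
log2 ratio of slimming over control against mean level (CPM, log axis) for the 5714 genes with at least 10 CPM in 1 library (grey), with the 6 clock genes of that set in orange. All 6 lie inside the dotted lines at 2-fold, with Nfil3 (-0.69) and Per3 (0.51) at the ends.

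Marker transcripts of other cells were read beside these values. All 10 oocyte markers, from Gdf9 to H1foo, were above 10 CPM in both libraries; 3 of them were more than 1.5-fold higher in the slimming pool (Zp1, Zp2 and Zp3, the last 2.05-fold), farther apart than any of the 6 clock genes, and 0 were lower by as much. Of 16 immune cell markers, 10 had 0 counts in the slimming pool and 1 in the control pool, with a sum of 27.7 CPM against 49.0 CPM, the same direction as Nfil3 and Timeless; H2-Aa alone held 17.9 and 27.2 CPM of it. The defining markers Tyrobp and Fcer1g stood at 0 counts against 57 and 62 and Ptprc at 1 against 2, while C1qb had 38 in both and Laptm5 had 86 against 75. Of 20 cumulus and granulosa markers, 15 and 9 had 0 counts. Both sums were 533 CPM, of which Serpine2 held 491 and 475 CPM and Cyp19a1 34.5 and 39.2 CPM. Under these sums, Hsd3b1 had 1 count against 72, Inha 0 against 63 and Cyp11a1 0 against 17. Inhba had 0 against 12 and Tnfaip6 0 against 8, while Has2 had 5 against 2, and Fshr and Foxl2 had 0 in both. The part of these cells in the clock values was not tested.

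Clock proteins are also controlled after translation, by kinases, phosphatases and ubiquitin ligases. Of 79 genes on 12 wider clock lists, which include the 10, 44 reached 10 CPM and the others did not; 3 of these (6.82%) were higher by 1.5-fold or more in the slimming pool, 5 (11.4%) were lower by as much, and 0 were 2-fold apart; of all genes 10.3% and 7.16% were beyond 1.5-fold. Their median log2 ratio was -0.13, with 16 above and 28 below that of all genes. Bhlhe41, Gsk3b and Csnk2a2, counted among those past 1.5-fold, reached 10 CPM only in the pool where they were higher. Csnk1e, a casein kinase that marks PER proteins for destruction, had 1199 CPM against 1150 CPM, and Cul1, the scaffold of the ubiquitin ligase that does so, 2381 against 2373 CPM. The phosphatase list, in which Ppp1cb had the highest mean CPM and a log2 ratio of -0.28, and the ubiquitin list each had 0 genes at 1.5-fold.

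The highest and the lowest ratio of these 44 genes were those of kinases. Gsk3a and Gsk3b, which phosphorylate several clock proteins, had 870 counts against 1480 and 178 against 296, at log2 ratios of -0.85 (-0.97 to -0.73) and -0.81 (-1.09 to -0.54); Gsk3a shares exon sequence with the annotated gene 9130221H12Rik. Csnk2a2, a catalytic subunit of casein kinase 2, lay on the other side with 249 counts against 129 and a log2 ratio of 0.87 (0.56 to 1.19). Csnk2a2 (11.9 against 6.37 CPM) and Gsk3b (8.50 against 14.6 CPM) reached 10 CPM only in the pool where they were higher. Among 8 kinases with at least 10 CPM, 2 were thus lower by 1.5-fold or more and 1 was higher. Of 8 co-regulators, Ep300, an acetyltransferase that works with CLOCK and ARNTL, was 1.55-fold lower and 6 lay below the median of all genes; Wdr5, the highest of that list in mean CPM, had a log2 ratio of 0.03.

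Of the 3 input genes with at least 10 CPM, 2 lay above the median of all genes and 1 below. Adcyap1r1, the receptor for PACAP, a peptide that carries light signals to the brain's clock, had 783 counts against 413, a log2 ratio of 0.84 (0.67 to 1.02). Crtc1, a CREB co-activator and the highest of the input list in mean CPM, stood at -0.18. Of the output genes, Noct, a clock-controlled enzyme also called nocturnin, was the 1 with at least 10 CPM, at 443 against 485 CPM and a log2 ratio of -0.16.

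**Figure D4:**
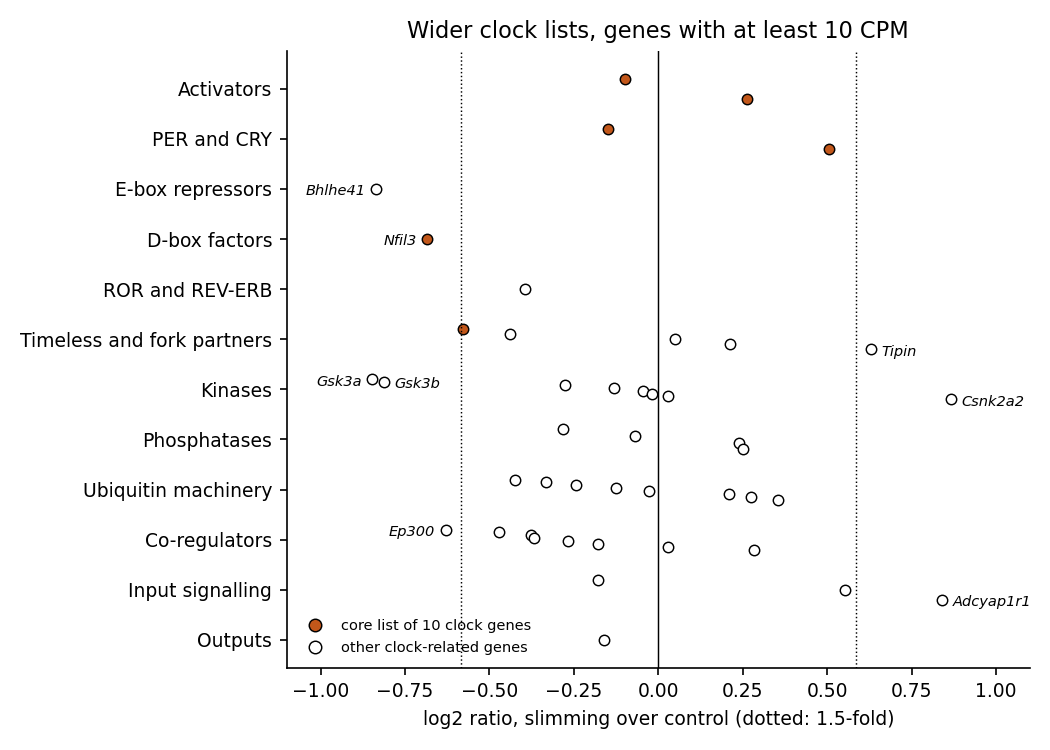
log2 ratio of slimming over control for each gene with at least 10 CPM on 12 lists of clock-related genes, 1 row per list; orange points are the core clock genes, open points the others, and dotted lines mark 1.5-fold. Names are given beyond 1.5-fold: Bhlhe41, Nfil3, Gsk3a, Gsk3b and Ep300 on the lower side and Tipin, Csnk2a2 and Adcyap1r1 on the higher side.

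Stored oocyte mRNAs carry signals at their 3' end, and the libraries were primed on poly(A) tails, so the ends of the clock transcripts were read from GENCODE vM21 (the longest coding transcript of each gene). A cytoplasmic polyadenylation element, TTTTAT or TTTTAAT, which in other maternal mRNAs recruits tail lengthening during maturation, stood within the last 100 bases of 1 of the 6 clock genes with at least 10 CPM (Arntl), where 23.1% of 5361 such genes had one; Per1, Per2 and Cry2, under 10 CPM, had one too. The polyadenylation signal AATAAA or ATTAAA stood within the last 40 bases of all 6, where 81.4% of the 5361 genes had one; of the other 4, Per1 and Cry2 had none there. Which ends the oocyte uses was not measured. The last 30 bases of the 3 clock mRNAs with the highest levels per kilobase are shown, with both kinds of signal in capitals; in Arntl they overlap.
Cry1: tttgttATTAAAgtatatgcaaatatggaa
Arntl: tTTTTAATAAAtgtttcccttgttctataa
Nfil3: agtttcAATAAAggattggtggcaagcaca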

How the data were processed

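Messenger RNA of 9 pooled oocytes per group was reverse transcribed from an oligo(dT) primer, amplified by PCR and sequenced on a SOLiD 4 instrument, per the labels' protocols; no molecular identifiers are named. Build mm9 comes from the submitters' processing notes; the aligner, how reads were counted and whether strand was used: not given in the sources used here. Per gene, the authors deposited raw counts per Ensembl gene, with blanks read as 0. The deposited log2 ratio, p-value and q-value compare both libraries and were made by the authors. The authors also deposited a score per gene (a z-score of both libraries, per the file headers), which was not used.

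For ratios, edgeR 4.0.16 (R 4.3.3) gave TMM factors, 1.01 for slimming and 0.989 for control, which scaled the counts. The log2 ratio adds 0.5 to each count. Its 95% interval is exact (Clopper-Pearson, on the share of slimming counts in both), and intervals of levels are exact Poisson intervals. Both kinds of interval treat each read as independent, although the cDNA was amplified by PCR. The floor was 3 counts, or 0.143 and 0.148 CPM. Python 3.11.15, scipy 1.17.1 and statsmodels 0.14.6 were used, and the scripts were tested on simulated data. Names came from GENCODE vM21 (GRCm38): 16913 of 18017 genes with counts matched. Lengths are those of the longest annotated transcript. Arntl, Bhlhe40, Cry2 and Timeless share exon sequence with an antisense gene of that annotation.

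The members, lists and promoter motifs were chosen with earlier results of these data known. All 10 members were named; from the wider lists were named genes at least 1.5-fold apart, the gene with the highest mean CPM and, for transcription factors, genes under 10 CPM, of which 1 is not reported here. With 2 libraries no likeness of pattern between genes was computed. Alternatives were other scalings, added counts, CPM minimums and folds, the authors' ratio, the mean and removal of a length trend.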

Additional observations from a re-analysis of the deposited data

How the results depend on the processing

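The number of clock genes at least 2-fold apart was 0 at 10 CPM, and stayed at 0 with scaling by total count, with 3 added to each count, with minimums of 1 and 30 CPM and with intervals wholly beyond 2-fold. It was 1 at 1.5-fold (Nfil3) and 1 with no CPM minimum (Per2, at 5 against 20 counts). Timeless, 1.49-fold lower, passed 1.5-fold with upper quartile scaling (1.54-fold), which made 2 lower genes; this count by scaling was added after the data were seen. No direction turned for any of the 9 genes with a ratio under the 5 other settings tried for each, and 44 of those 45 values stayed inside the counting interval of the gene; Cry1 with upper quartile scaling (-0.19) did not. With the length trend removed, Clock turned from -0.10 to 0.01; the other 5 of the 6 genes kept their direction. The median of the 6 genes lay between -0.08 (length trend removed) and -0.21 (minimum of 1 CPM, 8 genes), and that of the wider lists between -0.08 and -0.15. The scalings moved the median of all genes from -0.03 to 0.05. The order of levels by CPM and by CPM per kilobase differed in 8 of 20 places. Leaving out a replicate was not possible with 1 library per group, and no paired analysis was possible because each group is 1 library. Under about 10 CPM the depth leaves wide intervals, and Cry2, Npas2, Dbp, Tef and Rorb had too few counts for a ratio.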
